A study of Mus musculus with 8 samples.

Results

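Thbs1 and Gm29233 are 2 of the 54146 rows of the count table of this study, and they lie on opposite strands of the same stretch of mouse chromosome 2. They were chosen because their exons share 208 bases on opposite strands and because these same counts had shown both rows to be lower in every library treated with EZM8266 than in any without it. Thbs1 encodes thrombospondin 1, a large secreted glycoprotein of the extracellular matrix. Gm29233 is a predicted long noncoding RNA gene with no role that is known here. Both rows passed the filter on low counts, which kept 6379 rows.

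The libraries came from ID8-OR cells, a derivative of the mouse ovarian surface epithelial line ID8 that is labelled as resistant to olaparib. All 4 groups share that genotype and were treated for 72 hours. They are the combination of olaparib and EZM8266, EZM8266 alone, olaparib alone, and DMSO, the solvent, with 2 libraries each. EZM8266 inhibits EHMT1 and EHMT2, the enzymes that methylate lysine 9 of histone H3, and olaparib inhibits the PARP enzymes. Doses, and whether the resistant line is 1 clone, are not given in the sources used here. Whether the replicates are separate cultures is not stated either. Every p-value here therefore sets a difference only against the variation between these libraries, and that variation may be technical. The treatment label of 1 combination library names EZM8267, and that library was kept with the group in its title. Libraries with EZM8266 carry sample numbers 33 to 36 and the others 41 to 44, so a difference between those 2 blocks cannot be told apart from an effect of EZM8266.

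Thrombospondin 1 is stored in platelets and is made by many epithelial, stromal and tumour cells. It binds CD47 and CD36 on the cell surface, inhibits the growth of blood vessels, and can release TGF-beta from its latent complex. In tumours it is studied mainly as an inhibitor of angiogenesis and as part of the matrix that tumour cells lay down.

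The strand on which a fragment was counted decides what each row measures. Strand is marked by dUTP in this kit, which makes the first read complementary to the transcript, and the counting used the setting for reads that run with the transcript. A row therefore holds fragments from the strand opposite to its own gene. The Gm29233 row holds fragments on the strand of Thbs1 mRNA, and the Thbs1 row holds fragments on the strand opposite to Thbs1 mRNA. The abundant RNA Rmrp shows the same arrangement, since its own row had 1.04% to 1.68% of the counts that it and the row of Ccdc107, which lies over it, held together. The libraries held 973382 to 1680974 counts each, and a floor of 3 counts equals 1.78 to 3.08 CPM, which are counts scaled to a common library total.

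**Figure D1:**
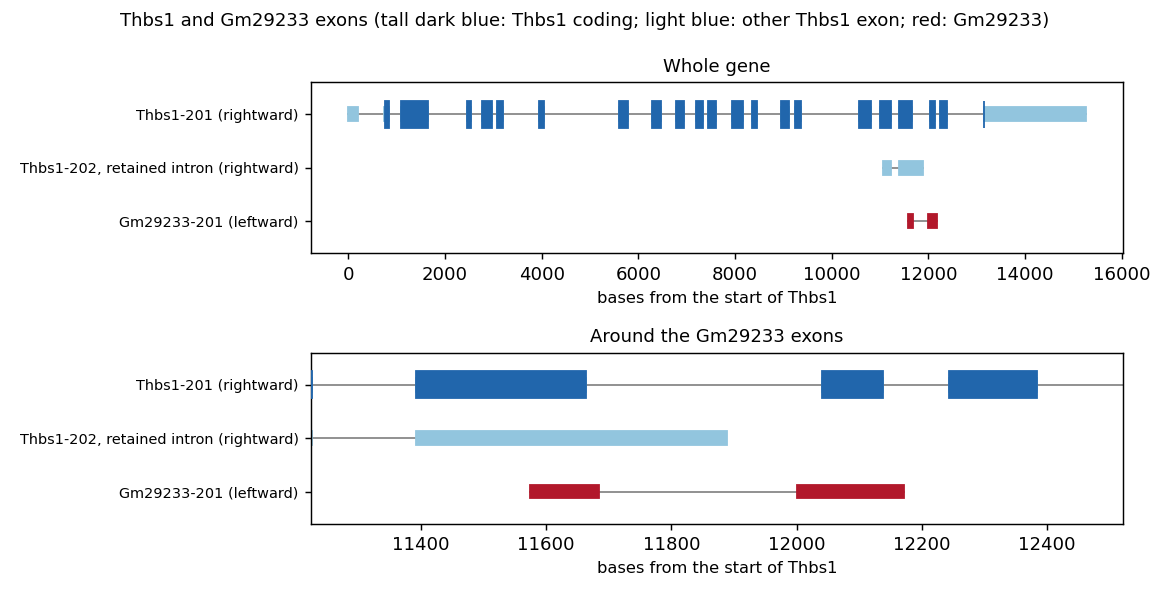
Exons of the protein-coding transcript Thbs1-201, the retained-intron transcript Thbs1-202 and Gm29233-201, by distance in bases from the start of Thbs1, over the whole gene and around Gm29233. The 2 exons of Gm29233 lie over exons 19 and 20 of Thbs1-201, toward the 3′ end of its coding part.

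In mm10, Thbs1 (ENSMUSG00000040152.8) runs from 118111876 to 118127133 on the plus strand of chromosome 2, with 6073 exon bases, and Thbs1-201 has 22 exons. Gm29233 (ENSMUSG00000101859.1, annotated as lincRNA) runs from 118123451 to 118124047 on the minus strand, wholly within Thbs1, with 281 exon bases in 2 exons. The shared 208 bases make up 74.0% of the Gm29233 exons and 3.42% of the Thbs1 exons. Of these, 187 are coding bases of Thbs1-201, 21 lie in an intron of Thbs1-201 that is exon in Thbs1-202, and the other 73 bases of Gm29233 lie outside all Thbs1 exons.

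The exons of Gm29233 are shown because no other row of the table has exons over those of Thbs1 on the other strand, so that fragments on the strand of Thbs1 mRNA were counted there. The sequences are from the GENCODE M21 transcripts (GRCm38, the assembly of mm10), 5′ to 3′. In exon 1 (chr2:118123877-118124047, minus strand) capitals mark the 98 bases over exon 20 of Thbs1-201, and in exon 2 (chr2:118123451-118123560, minus strand) all 110 bases lie over a Thbs1 exon.
Gm29233-201 exon 1: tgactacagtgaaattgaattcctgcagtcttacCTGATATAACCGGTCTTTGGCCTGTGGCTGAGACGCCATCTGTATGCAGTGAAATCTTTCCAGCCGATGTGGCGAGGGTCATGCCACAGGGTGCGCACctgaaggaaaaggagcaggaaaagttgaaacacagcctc
Gm29233-201 exon 2: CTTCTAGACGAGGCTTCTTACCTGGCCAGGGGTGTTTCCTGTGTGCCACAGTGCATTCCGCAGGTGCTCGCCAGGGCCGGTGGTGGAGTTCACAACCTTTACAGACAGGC
In the spliced Thbs1 mRNA the bases under both exons join into 1 run of 187. These are the bases of Thbs1-201 mRNA that lie under the Gm29233 row. A fragment counted wherever it touched an exon of the row, so fragments that reach beyond this stretch enter it too. The other bases of Gm29233 are not part of Thbs1-201 mRNA. The part from exon 19 is in lower case and the 98 bases from exon 20 are in capitals.
Thbs1-201 mRNA under Gm29233: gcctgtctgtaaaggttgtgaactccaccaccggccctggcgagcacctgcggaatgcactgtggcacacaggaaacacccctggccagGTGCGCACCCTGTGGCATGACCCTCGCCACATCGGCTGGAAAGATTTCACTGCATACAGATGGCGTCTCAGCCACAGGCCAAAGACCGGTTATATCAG
The stretch is coding throughout, with 2252 bases of the 5848-base mRNA after it. Its GC content is 58.8%, against 49.9% over the whole of Thbs1-201.

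Fragments on the strand of Thbs1 mRNA were less abundant in the libraries with EZM8266. The counts of the Gm29233 row were 310 and 325 with the combination, 401 and 400 with EZM8266, 926 and 905 with olaparib, and 759 and 1147 with DMSO. Scaled by TMM, which corrects for library size and composition, these were 304 and 308 CPM with the combination, 295 and 387 with EZM8266, 662 and 715 with olaparib, and 723 and 689 with DMSO. The 4 libraries with EZM8266 were all below the 4 without it, and the highest of the first kind, EZM8266 replicate 2, was at 387 CPM, against 662 CPM in the lowest of the second, olaparib replicate 1. Group levels were 306 ± 3.14 CPM with the combination, 341 ± 65.0 with EZM8266, 689 ± 37.6 with olaparib and 706 ± 24.0 with DMSO (mean ± SD, n = 2). In that order of levels, the combination and EZM8266 overlapped, as did olaparib and DMSO, and the only gap lay between EZM8266 and olaparib.

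The row of Thbs1 itself, which holds the opposite strand, was lower in count and had the same order of groups. Its counts were 20 and 22 with the combination, 41 and 16 with EZM8266, 86 and 59 with olaparib, and 62 and 129 with DMSO. The scaled levels were 19.6 and 20.8 CPM with the combination, 30.2 and 15.5 with EZM8266, 61.5 and 46.6 with olaparib, and 59.0 and 77.4 with DMSO. The libraries with EZM8266 again lay all below those without it. Group levels were 20.2 ± 0.894 CPM with the combination, 22.8 ± 10.4 with EZM8266, 54.1 ± 10.5 with olaparib and 68.2 ± 13.02 with DMSO (mean ± SD, n = 2). Neighbouring groups in this order overlapped, except EZM8266 and olaparib. In the EZM8266, olaparib and DMSO groups, the library that was the lower of the 2 in the Gm29233 row was the higher in the Thbs1 row.

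**Figure D2:**
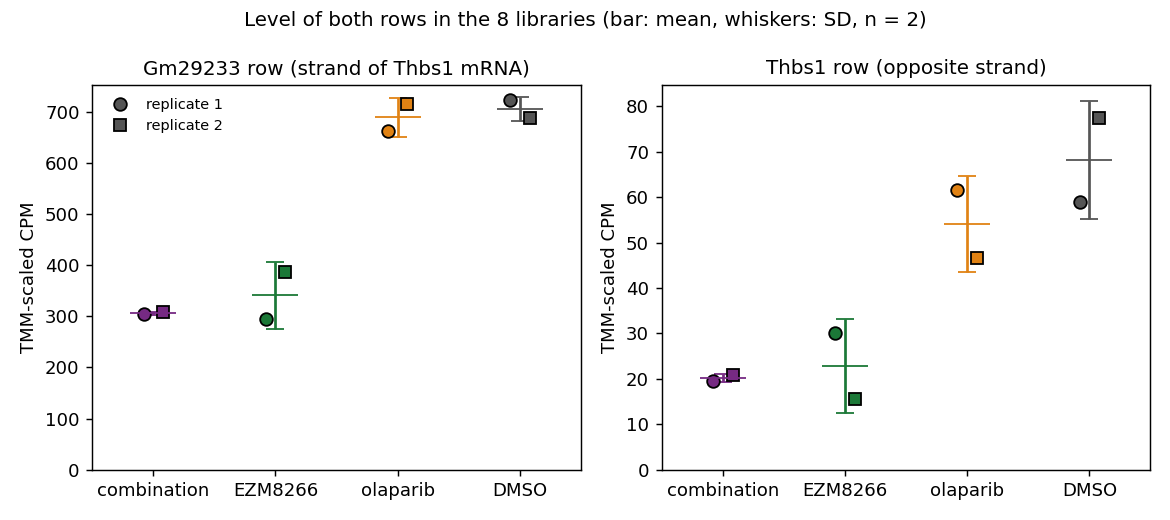
TMM-scaled CPM of the Gm29233 row (left) and the Thbs1 row (right) in each of the 8 libraries, with the mean and SD of each group (n = 2). In both panels the combination and EZM8266 libraries lie below all olaparib and DMSO libraries, at 295 to 387 CPM against 662 to 723 CPM for Gm29233 and at 15.5 to 30.2 CPM against 46.6 to 77.4 CPM for Thbs1.

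The contrasts of EZM8266 and of the combination with DMSO, and of the combination with olaparib, are those in which the rows had been noticed, so their fitted changes are given as a description and without a test. For the Gm29233 row the fitted log2 fold change was -1.05 ± 0.14 (SE of the edgeR fit) with EZM8266 against DMSO, of -1.21 ± 0.14 with the combination against DMSO, and of -1.17 ± 0.14 with the combination against olaparib. These correspond to 0.482, 0.434 and 0.444 times the level of the group each was set against. The Thbs1 row had log2 fold changes of -1.55 ± 0.30, -1.76 ± 0.31 and -1.42 ± 0.32 in the same 3 contrasts, or 0.341, 0.295 and 0.374 times. Without EZM8266 replicate 1 the Thbs1 row had -2.17 with EZM8266 against DMSO and without EZM8266 replicate 2 it had -1.19. The first pair of contrasts shares the DMSO libraries and the last pair shares the combination libraries, so they are not independent of each other. Over the whole table, edgeR called 13 of 6379 rows (0.204%) with EZM8266 against DMSO, 14 (0.219%) with the combination against DMSO and 6 (0.0941%) with the combination against olaparib, at a Benjamini-Hochberg adjusted p under 0.05. Rows called lower numbered 1 (0.0157%), 2 (0.0314%) and 2 (0.0314%).

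The remaining contrasts ask whether olaparib moved either row, alone or on top of EZM8266, and no change was detected. With olaparib against DMSO the log2 fold change of Gm29233 was -0.03 ± 0.13 (95% interval -0.32 to 0.26, edgeR adjusted p 0.999). With the combination against EZM8266 it was -0.15 ± 0.14 (-0.46 to 0.15, adjusted p 1.0). These intervals do not show that olaparib left the row as it was. The Thbs1 row had -0.34 ± 0.27 (-0.92 to 0.24, edgeR adjusted p 0.999) and -0.21 ± 0.35 (-0.96 to 0.55, adjusted p 1.0) in the same contrasts, with wider intervals at its lower counts. The interaction, the change with EZM8266 in the presence of olaparib less that in its absence, was -0.12 ± 0.19 for Gm29233 (-0.54 to 0.30) and 0.14 ± 0.44 for Thbs1 (-0.82 to 1.10), both at an edgeR adjusted p of 1.0. In these 3 contrasts edgeR called 0 of 6379 rows (0.0%), with 117, 97 and 103 rows at an unadjusted p under 0.05, and DESeq2 called 0, 1 and 0.

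**Figure D3:**
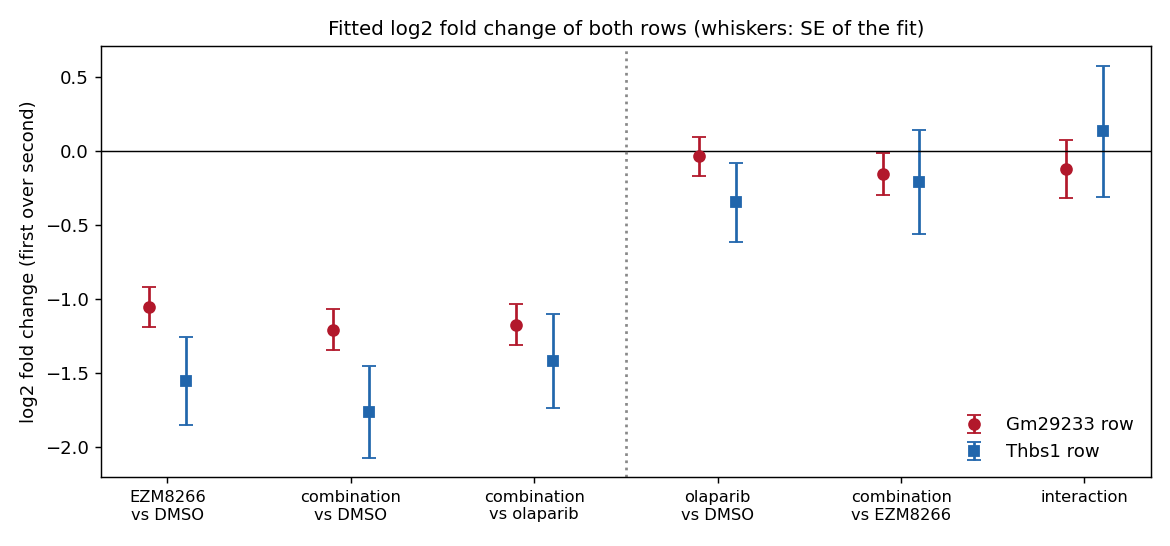
Fitted log2 fold change of the Gm29233 row (circles) and the Thbs1 row (squares) in 6 contrasts, with the SE of the edgeR fit as whiskers. Left of the dotted line are the contrasts with EZM8266 on one side only, which are descriptive (-1.05 to -1.76), and right of it are those tested, with values from -0.34 to 0.14.

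Both rows can be set on 1 scale only per length of exon. Gm29233 averaged 510 CPM over the 8 libraries, which placed it 241st of the 6379 tested rows, and per kilobase of exon it was 60th, at 1816 CPM. Thbs1 averaged 41.3 CPM, placed 2005th, and was 3214th per kilobase, at 6.81 CPM, close to the median row at 6.92. A fragment counted for a row wherever it touched one of its exons, so the level per kilobase of a 281-base row is overstated relative to a long row. Where within the rows the fragments lie was not measured.

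The Thbs1 row, per kilobase, was 0.389% of the Gm29233 row over all libraries together. By library this ratio was 0.299% and 0.313% with the combination, 0.473% and 0.185% with EZM8266, 0.430% and 0.302% with olaparib, and 0.378% and 0.520% with DMSO. The groups overlapped, and the lowest and highest values came from EZM8266 replicate 2 and DMSO replicate 2. The same ratio was computed for every row with at least 100 counts and at least 50% of its exon bases over exons of 1 gene on the other strand, and of no other gene. Over 402 such pairs the median was 0.524% (interquartile range 0.179% to 2.62%), and 178 pairs (44.3%) lay below Thbs1. The Thbs1 pair thus lay inside the interquartile range of these pairs. Leakage of the strand mark and RNA made from the other strand of Thbs1 cannot be told apart in these counts.

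The ratio was set beside a leakage share of each library, taken as the part that the Rmrp row holds of its own counts and those of Ccdc107. The Rmrp row holds the strand of Ccdc107 mRNA, so fragments of that mRNA may enter the share beside leakage. This leakage share was 1.44% and 1.21% with the combination, 1.55% and 1.04% with EZM8266, 1.53% and 1.42% with olaparib, and 1.24% and 1.68% with DMSO. The libraries with the lowest and the highest share were also those with the lowest and the highest ratio. Over the 8 libraries Pearson's r was 0.85 and Spearman's rho was 0.79. These are given as a description without a test, since the relation was looked for after the values had been seen. DMSO replicate 2 and EZM8266 replicate 2 were the 2 libraries farthest from the median share. Without them r was 0.54 and rho 0.49, over the narrower range of leakage in the other 6 libraries. Whether leakage accounts for the ratio was not tested. Each block of sample numbers holds only 4 libraries, too few for a value within it. Among 143 pairs with at least 100 counts on both rows the median r with the leakage share was 0.40, and 106 pairs (74.1%) were positive. With the leakage share as a covariate, the log2 fold change of Gm29233 with EZM8266 against DMSO was -1.14. That of Thbs1 was -1.37, again as a description.

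**Figure D4:**
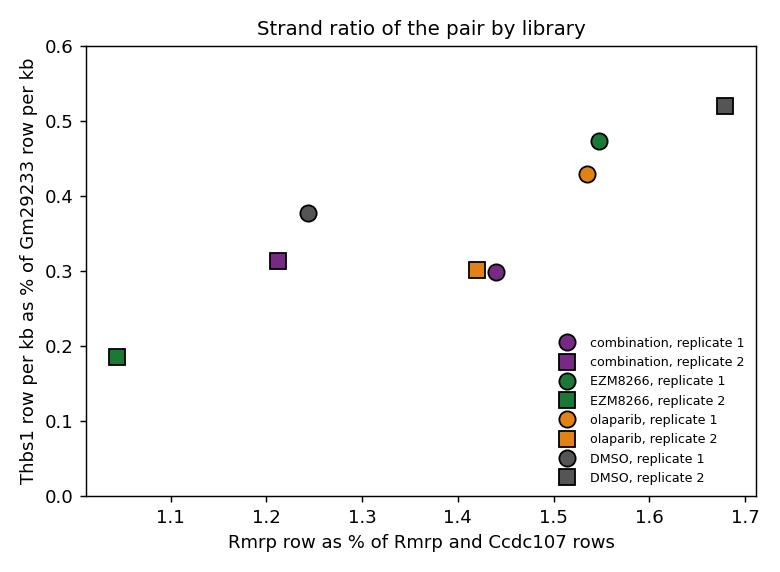
Ratio of the Thbs1 row to the Gm29233 row, each per kilobase of exon, against the leakage share, both in percent, for each of the 8 libraries. EZM8266 replicate 2 (0.185%) and DMSO replicate 2 (0.520%) mark the ends, and the libraries with and without EZM8266 are mixed along the plot.

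The neighbourhood of Thbs1 held almost no counts, so the change could not be set beside that of nearby genes. Of 11 other rows within 250000 bases, 0 had enough counts to be tested and 6 had none in any library. Gm13986, a noncoding gene 674 bases upstream of Thbs1, had 22 counts over all 8 libraries together. Fsip1, a gene of the sperm flagellum, lies 3291 bases past the end of Thbs1 on the minus strand, so that its row holds the strand of Thbs1 mRNA, and it had 3 counts in all. Gpr176, an orphan G-protein-coupled receptor, also had 3.

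The other thrombospondins could hardly be measured. Their own rows had 0 counts for Thbs2, 3 for Thbs3, 1 for Thbs4 and 18 for Comp (cartilage oligomeric matrix protein, a thrombospondin of cartilage) over the 8 libraries. The only one covered from the other strand was Thbs3, over whose exons lie 318 bases of the row of Mtx1, a mitochondrial import gene that also overlaps another gene. The Mtx1 row had 38 to 65 counts and log2 fold changes of 0.26 ± 0.23 with EZM8266 and -0.00 ± 0.24 with the combination against DMSO (edgeR adjusted p 0.910 and 1.0).

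Receptors and partners of thrombospondin 1 were read mostly on the strand opposite to their mRNA, at low counts, and none was called. Of 17 genes in the list, 10 had a tested row. EdgeR called 0.204% of all tested rows with EZM8266 and 0.219% with the combination against DMSO. With so few rows, the lack of a call does not set this list, or those below without a call, apart from other rows. With EZM8266 against DMSO 8 of the 10 were below 0, with a median log2 fold change of -0.27, and 7 were below 0 with the combination, with a median of -0.21. With olaparib against DMSO 9 were below 0, with a median of -0.32, and with the combination against olaparib 4 were, with a median of 0.04, so the tilt below DMSO was present without EZM8266 too. The 3 contrasts with DMSO share its libraries. Over all tested rows 52.8%, 53.0%, 51.6% and 51.1% were below 0 in these 4 contrasts, with medians of -0.02, -0.02, -0.01 and -0.01. Cd47, a receptor of thrombospondin 1 that also restrains phagocytosis, had -0.01 ± 0.61 and 0.28 ± 0.61. Itgb1, the beta 1 integrin shared by many matrix receptors, had -0.29 ± 0.35 and -0.19 ± 0.35, at 28 to 119 counts. Its partners in the list lay on both sides of 0, with EZM8266 and with the combination. With EZM8266 the integrin alpha chains had -0.26 ± 0.52 (Itga2b), 0.19 ± 0.28 (Itga3), 0.10 ± 0.44 (Itga5) and -0.88 ± 0.48 (Itga6), and with the combination 0.33 ± 0.50, 0.18 ± 0.28, -0.50 ± 0.48 and -0.14 ± 0.46 in that order. The heparan sulphate carriers Sdc1 and Sdc4 had -0.84 ± 0.46 and -0.27 ± 0.56 with EZM8266. With the combination they had -0.25 ± 0.45 and -0.72 ± 0.60. Lrp1, the endocytic receptor that clears thrombospondin 1, had -0.45 ± 0.36 and -0.33 ± 0.36, and Calr, the calreticulin that partners it at the cell surface, had -0.09 ± 0.36 and -0.22 ± 0.37. The smallest edgeR adjusted p among these 10 rows in either contrast with DMSO was 0.854. Gm13684, whose row holds the strand of Itgav, had -0.36 ± 0.47 and 0.37 ± 0.45. Cd36, the other classical receptor, had 3 counts over all libraries and Sirpa, the ligand of Cd47, had 1.

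Genes that process or cleave thrombospondin 1 gave 3 tested rows of 11, with 0 called. They were Furin, a proprotein convertase, Mmp2, a gelatinase, and Timp2, a metalloproteinase inhibitor, at -0.44 ± 0.56, 0.27 ± 0.31 and -0.03 ± 0.41 with EZM8266 against DMSO. The row of Syn3, a synapsin gene with 1733 bases over Timp3, had 1.14 ± 0.30 with EZM8266 and 0.57 ± 0.32 with the combination (edgeR adjusted p 0.318 and 0.973). It was not called, and it holds the strand of Timp3, a metalloproteinase inhibitor bound to the matrix.

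TGF-beta can be released from its latent form by thrombospondin 1. Genes of TGF-beta and its latency, its receptors and the Smads gave 7 tested own rows of 20. They gave 4 tested rows on the mRNA strand, with 0 called. The own rows had a median of -0.05 with EZM8266 and -0.21 with the combination, and the rows on the mRNA strand had 0.20 and 0.20. The medians over all tested rows were -0.02 and -0.02. The Gm48008 row, on the strand of the ligand Tgfb3, had 0.02 ± 0.13 and 0.05 ± 0.13. Ltbp1, a latent TGF-beta binding protein, had -1.55 ± 0.45 with EZM8266 and -0.76 ± 0.42 with the combination on its own row at 5 to 30 counts, and was not called (edgeR adjusted p 0.464 and 0.973).

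Known targets of TGF-beta were measured in 6 own rows of 21 and in 4 rows on the mRNA strand, and 0 were called. For own rows the medians against DMSO were -0.36 with EZM8266, -0.20 with the combination and -0.35 with olaparib, and the median of the combination against olaparib was 0.02. On the mRNA strand the same 4 medians were 0.09, -0.10, -0.07 and 0.33. All tested rows had medians of -0.02, -0.02, -0.01 and -0.01 in that order. Gm15270, a row over 665 bases of Ccn2, the connective tissue growth factor, was covered by 455 to 803 counts and had 0.27 ± 0.12 with EZM8266 and 0.24 ± 0.12 with the combination (edgeR adjusted p 0.854 and 0.973). Col1a1, the main fibrillar collagen chain, had -0.37 ± 0.38 and -0.23 ± 0.38 on its own row.

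Among other matricellular proteins, those of the matrix that modulate cells more than they build structure, 8 own rows of 22 and 3 rows on the mRNA strand were tested and 0 were called. The medians for own rows were -0.36 with EZM8266, -0.21 with the combination and -0.18 with olaparib against DMSO, and on the mRNA strand -0.36, -0.45 and -0.10. For all tested rows they were -0.02, -0.02 and -0.01. The row on the strand of Fn1, the adhesive glycoprotein fibronectin, is Apol7d, which shares 292 bases with it. It had 509 to 574 CPM with EZM8266 and 479 to 539 with the combination, against 682 and 711 with DMSO, or -0.36 ± 0.12 and -0.45 ± 0.12 (edgeR adjusted p 0.742 and 0.334). The row on the strand of Tnc, the matrix protein tenascin C, is 8030451A03Rik, with 10 to 36 counts, -0.91 ± 0.36 with EZM8266 and -1.19 ± 0.38 with the combination (edgeR adjusted p 0.797 and 0.584). Fn1 and Sparc, a collagen-binding protein, had -0.55 ± 0.34 and -0.41 ± 0.36 with EZM8266 on their own rows. None of these was past the threshold in any of the 6 contrasts.

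Genes known to regulate Thbs1 gave 6 tested own rows of 16 and 4 rows on the mRNA strand, with 0 called. Own rows had medians of 0.06 and 0.08 with EZM8266 and the combination, and rows on the mRNA strand 0.18 and 0.10. The medians of all tested rows were -0.02 and -0.02. Myc, which represses Thbs1 in several cell types, had -1.40 ± 0.52 and -0.48 ± 0.48 on its own row at 3 to 41 counts (edgeR adjusted p 0.797 and 0.982). Junos, whose row holds the strand of the transcription factor Jun, had 0.21 ± 0.19 and 0.03 ± 0.19. Gm17077, whose row holds the strand of Usf2, a transcription factor that binds E-boxes, had 0.17 ± 0.17 and 0.21 ± 0.17.

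The labelled cell type and other possible sources of thrombospondin 1 were looked at through their markers. Of 12 epithelial and mesothelial markers 7 own rows were tested, among them Krt8, Krt18, Krt19, Wt1 and Vim. All 12 summed to 204 to 207 CPM with the combination, 170 to 252 with EZM8266, 174 to 193 with olaparib and 184 to 243 with DMSO. This sum is CPM by total counts, without TMM scaling. With EZM8266 against DMSO 6 of the 7 were below 0, with a median of -0.41, and with the combination 3 were, with a median of 0.03. Over all tested rows 52.8% and 53.0% were below 0 in these contrasts, with medians of -0.02 and -0.02. The row on the strand of Krt8, a keratin of simple epithelia, had 196 to 362 counts in every library and was not called. Thbs1 and Gm29233 were left out of a tally of list rows called in any of the 6 contrasts. Pax8, a transcription factor of the Mullerian epithelium, was the only row in that tally. It was not called with the combination against DMSO or against olaparib. Its log2 fold change was 3.58 ± 0.52 with EZM8266 against DMSO (edgeR adjusted p 0.011), at 3 to 47 counts. Its row lies over a noncoding gene on the other strand. That call was lost without DMSO replicate 1, without DMSO replicate 2 and without EZM8266 replicate 2, with a highest edgeR adjusted p of 0.15, while the log2 fold change stayed between 3.21 and 3.88 with any 1 library left out. It was also lost in a fit of only the EZM8266 and DMSO groups (edgeR adjusted p 0.0869) and when the libraries rich in satellite repeats, DMSO replicate 1 and olaparib replicate 2, were both left out (edgeR adjusted p 0.0840).

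Platelet markers had 13.1 to 28.8 CPM in all over the libraries with EZM8266 and 10.7 to 26.5 in the others, with Pf4 at 0 counts and 2 of 6 rows tested. The 6 endothelial markers summed to 1.81 to 4.64 CPM with EZM8266 and 1.19 to 4.97 without, none had a tested row, and Emcn was at 0. Of the 8 leucocyte markers, Cd3e, Adgre1, Itgam and Ly6g were at 0 counts and only Csf1r, whose row lies over another gene, was tested. The leucocyte sum was 91.5 to 107 CPM with EZM8266 and 74.2 to 104 without. Fibroblast markers summed to 48.3 to 158 CPM with EZM8266 and 109 to 152 without, with 2 of 7 tested (Col1a1 and Pdpn) and Pdgfrb at 0. These sums are CPM by total counts, without TMM scaling. They are of own rows, which hold the strand opposite to the markers' mRNA, and their part in the difference at Thbs1 was not tested. In bulk RNA, fewer cells that make a transcript and less of it per cell cannot be told apart.

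The rows whose level followed Gm29233 most closely were found by Pearson's r of log2 CPM (TMM, prior count 2) over the 8 libraries, as a description with no test. Of 6378 other tested rows, 14 had r above 0.9 and 37 below -0.9, and the median was 0.04. The Thbs1 row had r of 0.86 and was 33rd. The libraries share treatment and depth, and any row that separates those with EZM8266 from the rest scores high.

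The 5 closest were Gm11149 (r 0.99), 8030451A03Rik (0.99), Col12a1 (0.97), Gm26538 (0.96) and Apol7d (0.94). Gm11149 lies over 417 bases of Ncam1, the neural cell adhesion molecule. Its level was 1473 and 1377 CPM with the combination, 1340 and 1546 with EZM8266, 1926 and 1953 with olaparib, and 1952 and 1866 with DMSO, so that the libraries with EZM8266 were all below the others by a smaller step than at Gm29233. The 8030451A03Rik row holds the strand of Tnc. It had 9.79 and 9.48 CPM with the combination, 11.0 and 12.6 with EZM8266, 18.6 and 22.1 with olaparib, and 22.8 and 21.6 with DMSO. Col12a1, a collagen associated with fibrils, was read on its own row at only 3 to 15 counts. The Gm26538 row holds the strand of Kdm3b, a demethylase of histone H3 lysine 9. It had 64.0 to 71.6 CPM with EZM8266 present and 78.7 to 88.5 without. Apol7d is the row on the strand of Fn1.

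The 3 rows with the most opposite pattern were Gm16573, Gm42686 and A530040E14Rik, each with r of -0.97. The Gm16573 row holds the strand of Parp4, and the Gm42686 row that of the drug efflux pump gene Abcb1a. Gm42686 had 47.0 and 51.2 CPM with the combination, 48.5 and 42.6 with EZM8266, 15.02 and 20.6 with olaparib, and 15.2 and 16.2 with DMSO. Its log2 fold change was 1.53 with EZM8266 and 1.63 with the combination against DMSO as a description, since the row was picked by its pattern over these libraries. Gm16573 had 111 to 119 CPM with EZM8266 present and 86.2 to 90.8 without.

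**Figure D5:**
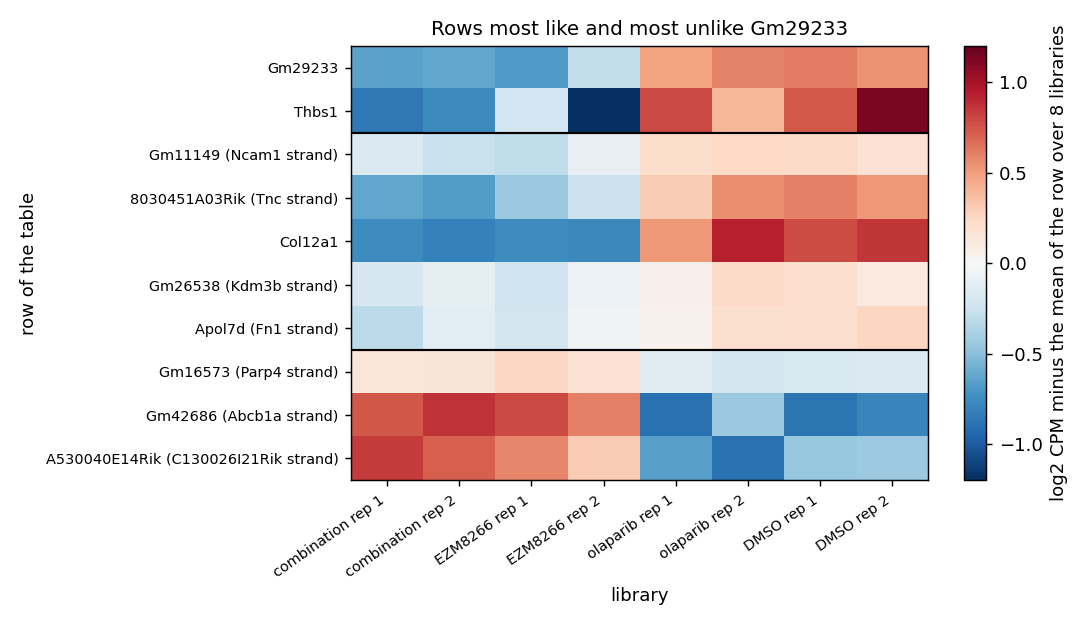
Log2 CPM of Gm29233 and Thbs1 (top), the 5 rows most like Gm29233 (middle) and the 3 most unlike it (bottom) in the 8 libraries, each less the mean of its row. Gm29233 lies between -0.68 and -0.29 where EZM8266 was present and between 0.48 and 0.61 elsewhere, and the bottom rows show the opposite sign.

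The libraries differed in ways that do not follow the groups. The Gm10800 row, a predicted gene over satellite repeats, had 23746 counts in DMSO replicate 1 and 22517 in olaparib replicate 2, against 1182 to 4277 in the others. Without that pair of libraries the log2 fold change with EZM8266 against DMSO was -1.02 for Gm29233 and -1.73 for Thbs1. The rows of Actb and Gapdh, read on the strand opposite to their mRNA, had 201 to 750 and 15 to 40 counts, and Malat1 46 to 176, with none called. Of the genes for the drug targets, Ehmt2 and Parp1 had 7 to 30 and 8 to 61 counts on their own rows, and Ehmt1 and Parp2 had at most 10 and 9 and were not tested. Ehmt2 and Parp1 were not called, and these rows do not measure the activity of the enzymes.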

How the data were processed

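RNA from 8 libraries of ID8-OR cells was read on a NovaSeq X as read pairs, per the labels' protocols, after ribosomal depletion and preparation with a stranded kit. The submitters' processing notes name FastQC 0.11.8, MultiQC 1.7, HISAT2 2.1.0, featureCounts, Subread 1.6.2 and mm10, and per the file headers featureCounts counted fragments over GENCODE M18 genes with strand setting 1, a fragment counting for every gene it overlapped. The deposited values are whole-number counts, not normalized, and 4.54% to 5.40% of 19743299 to 30329847 fragments per library were assigned. GENCODE M21 named 54079 rows and left 67 unnamed.

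EdgeR 4.0.16 (R 4.3.3, quasi-likelihood test) was fitted to all rows and libraries with 4 group means, TMM scaling and filterByExpr (minimum count 10, minimum total 15), with Benjamini-Hochberg adjustment over 6379 rows and calls under 0.05. It was tested on simulated counts. Intervals use the t distribution, and the floor of 3 counts covers counting error only. The members and the gene lists were chosen with earlier results of these data known. Named rows are the members, rows within 250000 bases, list rows (called rows, and up to 4 others of highest count), the 5 most and 3 least like Gm29233, strand-check rows and the drug targets. For the members, contrasts in which they had been noticed have no test. Alternatives were DESeq2 1.42.0, other scaling and filters, a replicate block, leakage as a covariate, only the groups compared, and left-out libraries. A row that this rule takes is not reported here.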

Additional observations from a re-analysis of the deposited data

How the results depend on the processing

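With EZM8266 or the combination against DMSO, and with the combination against olaparib, both rows were negative under all settings tried. Leaving out 1 library at a time, Gm29233 ranged from -1.26 to -0.88 with EZM8266 against DMSO and Thbs1 from -2.17 to -1.19, the ends coming from the 2 EZM8266 libraries. Under the other 10 settings these were -1.14 to -0.96 and -1.73 to -1.37. The contrasts that were tested stayed uncalled throughout, with a lowest adjusted p of 0.609 by any tool, and in 5 of the 6 the sign changed under at least 1 setting. The Gm29233 row with olaparib against DMSO was 0.00038 with DESeq2 and -0.074 to 0.014 with 1 library left out. The exception, the Thbs1 row with olaparib against DMSO, was -0.42 to -0.30 over the other settings and -0.57 to -0.12 with 1 library left out. In the same way, combination against EZM8266 ran from -0.32 to 0.065 for Gm29233 and from -0.56 to 0.40 for Thbs1, and the interaction from -0.29 to 0.093 and from -0.22 to 0.74. The cause was not tested.

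The median ratio over strand pairs was 0.259% where at least 90% of the row overlapped and 0.373% with at least 500 counts, with 57.5% and 50.4% of pairs below Thbs1. Within 100000 bases, 0 of 4 neighbours were tested. The labels do not say what libraries with the same replicate number share, and the numbers were not taken to pair them. Deviations of equal numbers correlated at -0.32 to -0.15 between DMSO and the other groups and at 0.22 to 0.29 among those. With a replicate block, Gm29233 had -1.06, -1.21 and -1.17 and Thbs1 -1.59, -1.77 and -1.41 with EZM8266 against DMSO, the combination against DMSO and the combination against olaparib, and 10, 15 and 5 rows were called. With the DMSO numbers crossed, a setting added after the data were seen, 84, 73 and 47 rows were called.

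The number of rows called over the table, 13, 14 and 6 in those contrasts, ranged from 3 (only the groups compared, or without the satellite-rich pair) to 46 (leakage covariate), from 5 (without that pair) to 59 (leakage covariate), and from 4 (without olaparib replicate 2) to 42 (no filter), beside the crossed block. With olaparib against DMSO, the combination against EZM8266 and the interaction, it was 0 in the main analysis and 8, 12 and 7 with no filter. Counts of 16 to 129 per library limit the Thbs1 row.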

Other observations

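Targets of YAP and SRF, which respond to cell shape and tension and with which Thbs1 is often grouped, gave 6 tested own rows of 14, with 0 called. Their median log2 fold change against DMSO was -0.09 with EZM8266, -0.21 with the combination and -0.36 with olaparib, beside -0.02, -0.02 and -0.01 over all tested rows, and that of the combination against olaparib was 0.01. With olaparib against DMSO 6 of the 6 were below 0, beside 51.6% of all tested rows. Tpm1, a tropomyosin, and Vcl, the focal adhesion protein vinculin, had -0.29 ± 0.30 and 0.23 ± 0.31 with EZM8266. The row on the strand of Vcl, Ap3m1, is covered by 4418 to 6356 counts and had 0.11 ± 0.11 with EZM8266 and 0.14 ± 0.11 with the combination (edgeR adjusted p 0.922 and 0.982).

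Regulators of angiogenesis gave 10 tested own rows of 22, with 0 called, and 8 of the 10 were below 0 with EZM8266 and 7 with the combination. The medians were -0.68 and -0.31. With olaparib against DMSO 7 were below 0, with a median of -0.085. The combination against olaparib had 8 below 0 and a median of -0.32. Over all tested rows 52.8%, 53.0%, 51.6% and 51.1% were below 0 in that order, with medians of -0.02, -0.02, -0.01 and -0.01. With EZM8266 and with the combination against DMSO, Sema3a, a guidance cue that inhibits vessel growth, had -1.03 ± 0.44 and -0.85 ± 0.45. In the same contrasts Angpt2, a ligand of the receptor Tek, had -0.70 ± 0.32 and -0.85 ± 0.33, and Vegfa had 0.50 ± 0.43 and 0.02 ± 0.46. The lowest edgeR adjusted p among these genes was 0.853. The row on the strand of Hif1a, the factor of the response to low oxygen, is Gm15283, with 1701 to 2652 counts, 0.04 ± 0.12 and 0.00 ± 0.12. The Nudt6 row, which holds the strand of the growth factor Fgf2 and overlaps a further gene, had 5 to 17 counts. Its log2 fold changes were 1.43 ± 0.54 and 1.68 ± 0.54 (edgeR adjusted p 0.797 and 0.617).

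The enzymes and readers of histone H3 lysine 9 methylation gave 9 tested own rows of 15 and 7 tested rows on the mRNA strand, with 0 called. The medians were 0.10 and 0.04 for own rows and 0.05 and -0.10 for those on the mRNA strand, with EZM8266 and the combination. For all tested rows they were -0.02 and -0.02. Ehmt2 had -1.40 ± 0.48 and -0.36 ± 0.44 on its own row (edgeR adjusted p 0.742 and 0.991). Gm14820, whose row holds the strand of the methyltransferase gene Suv39h1, had 340 to 559 counts, 0.05 ± 0.12 and 0.08 ± 0.12.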
